A study of Homo sapiens with 15 samples.

Results

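The 38 genes described here are the hypoxia-inducible and glycolysis genes of the human melanoma cell line A375, picked by name from the 20332 genes of the serum table and the 20323 genes of the overexpression tables. They were divided by textbook knowledge into 15 targets of hypoxia-inducible factor (HIF) outside glycolysis, 9 inducible glucose genes and 14 constitutive glycolytic enzymes. Genes and classes were chosen with earlier results of these data known, so the contrast of the classes is not independent of these data. The first 2 classes are called the 24 inducible genes below. Messenger RNA was measured by RNA-seq in 15 libraries, 3 in each of 5 groups. Starved cells were kept in 0.1% fetal bovine serum (FBS) for 48 hours and were set against cells kept in 10% FBS for the same time. In the other set, cells overexpressed caMKL1, a constitutively active form of MKL1, or MKL1 itself, or carried a control vector, all for 48 hours. MKL1, whose gene symbol is MRTFA, works with the transcription factor SRF to switch on genes of the actin cytoskeleton. The labels give no promoter or delivery method for the constructs and no serum level for the overexpression groups, and they do not say whether the libraries of a group came from separate cultures. The p-values below therefore measure the spread between these libraries, which may be technical. No sample was labelled as hypoxic.

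HIF is a transcription factor of an oxygen-regulated alpha subunit (HIF1A or EPAS1) and a stable partner (ARNT or ARNT2). In normal oxygen, prolyl hydroxylases of the EGLN family mark the alpha subunit, and the VHL ubiquitin ligase then has it degraded. When the alpha subunit is kept, the dimer binds short promoter and enhancer elements and raises genes for glucose uptake, glycolysis, pH control, mitophagy and vessel growth. Melanoma cells take up much glucose and release lactate also in normal oxygen, and several glycolytic enzymes are abundant housekeeping products whether or not HIF is active.

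The core of the hypoxia response element reads ACGTG or GCGTG, and the stretches below show where ACGTG lies just before a RefSeq start of genes that the results turn on. Such a start can lie inside the gene as GENCODE annotates it. The stretches of CA9, PDK1, ALDOC, HK2 and GAPDH lie wholly inside it, with gene starts at 172555373 for PDK1, 74833981 for HK2 and 6533927 for GAPDH. All stretches come from RefSeq promoters of GRCh38.p14, are given on the strand of the gene, and carry in capitals each ACGTG, its reverse complement CACGT, or CACGTG, which holds the motif on both strands.
CA9, chr9:35673868-35673927, plus strand: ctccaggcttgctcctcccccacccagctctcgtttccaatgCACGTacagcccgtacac
BNIP3, chr10:131982018-131982083, minus strand: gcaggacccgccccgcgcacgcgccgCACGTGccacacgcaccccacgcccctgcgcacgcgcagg
P4HA1, chr10:73096921-73096981, minus strand: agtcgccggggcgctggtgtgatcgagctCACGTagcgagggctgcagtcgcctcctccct
PDK1, chr2:172556030-172556089, plus strand: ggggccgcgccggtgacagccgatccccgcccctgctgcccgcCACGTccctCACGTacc
ALDOC, chr17:28576896-28576955, minus strand: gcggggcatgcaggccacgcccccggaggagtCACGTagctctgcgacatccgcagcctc
HK2, chr2:74834960-74835040, plus strand: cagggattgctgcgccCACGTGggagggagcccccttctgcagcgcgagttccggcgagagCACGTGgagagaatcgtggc
LDHA, chr11:18394363-18394503, plus strand: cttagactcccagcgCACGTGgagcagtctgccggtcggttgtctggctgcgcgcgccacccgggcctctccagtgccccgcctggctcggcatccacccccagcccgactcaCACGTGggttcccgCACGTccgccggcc
GAPDH, chr12:6535154-6535214, plus strand: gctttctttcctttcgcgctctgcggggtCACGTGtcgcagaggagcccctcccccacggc
The first 6 genes are inducible genes that rose in starved cells, and the other two, LDHA and GAPDH, are constitutive enzymes.

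Of the 38 genes, 34 had at least 1 promoter in the RefSeq table, in 63 windows, and the 250 bases before each start were searched on both strands. ACGTG was found in a window of 13 of the 20 inducible genes with a promoter (65.0%) and of 8 of the 14 constitutive enzymes (57.1%), beside 25.3% of protein-coding genes and 21.7% of all genes in the table. Counted by window, ACGTG was held by 46.7% of inducible and 30.3% of constitutive windows, beside 20.2% of protein-coding and 18.5% of all windows. The other form, GCGTG, was held by 46.7% of inducible and 21.2% of constitutive windows, beside 38.3% of protein-coding and 32.2% of all windows. A match describes the letters of these windows and not a bound site.

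The libraries held 13937251 to 23957043 counts. MRTFA had 481, 463 and 465 CPM (counts scaled to library size) in the caMKL1 libraries, 732, 771 and 709 CPM in the MKL1 libraries and 26.2, 25.7 and 25.7 CPM in the vector libraries. The counts do not separate the construct from the cells' own gene. Of the melanocyte lineage markers, SOX10 averaged 428 to 946 CPM and MITF 29.7 to 51.1 CPM over the groups, whereas TYR, PMEL and MLANA stayed under 1 CPM in every group mean. DCT, another of these 8 markers, had 0.293, 0.516 and 0.494 CPM with caMKL1, against 4.06, 2.99 and 4.49 CPM with MKL1 and 2.57, 2.84 and 2.76 CPM with the vector, and S100B had 13.4, 13.6 and 15.0 CPM in 0.1% FBS, against 31.5, 35.4 and 32.2 CPM in 10% FBS. The 8 markers summed to 502 to 533 CPM in 0.1% FBS, against 580.0 to 689 CPM in 10% FBS, and to 856 to 951 CPM with caMKL1, 1043 to 1126 CPM with MKL1 and 991 to 1090.1 CPM with the vector. Of the 8 markers, 6 were tested in 0.1% FBS, with log2 fold changes of -1.24 to 1.55. There 3 rose and 2 fell, beside 31.2% of all genes higher and 31.4% lower. With caMKL1, 1 rose and 2 fell of 7 tested, beside 30.5% and 33.1% of all genes. With MKL1, 3 rose and none fell of 7 tested, beside 15.8% and 15.4%. The 6 fibroblast markers summed to 29.5 to 35.02 CPM in 0.1% FBS, against 33.3 to 36.9 CPM in 10% FBS, and to 29.7 to 32.1 CPM with caMKL1, 23.5 to 30.1 CPM with MKL1 and 21.1 to 22.9 CPM with the vector. All 6 were tested in 0.1% FBS, where 1 rose and 2 fell, beside 31.2% of all genes higher and 31.4% lower. Those that fell were DCN and COL1A1, at -2.42 and -1.27 on the log2 scale. With caMKL1, LUM rose, at 1.91, and none fell of 5 tested, beside 30.5% and 33.1% of all genes. With MKL1, 2 rose, by up to 1.06, and none fell of 5 tested, beside 15.8% and 15.4%. The 5 epithelial markers summed to 20.6 to 23.4 CPM in 0.1% FBS, against 19.3 to 19.9 CPM in 10% FBS, and to 8.83 to 10.2 CPM with caMKL1, 12.3 to 12.9 CPM with MKL1 and 15.2 to 16.5 CPM with the vector, with CLDN4 falling by 0.83 on the log2 scale with caMKL1 and KRT19 at 0 in 0.1% FBS and with the vector. The summed level of 6 lymphocyte markers was 0.145 to 1.86 CPM per library, with CD2 and MS4A1 at 0 in all groups. The 3 endothelial markers summed to 4.01 to 6.05 CPM with caMKL1, against 0.837 to 1.13 CPM with the vector, and to 3.11 to 3.99 CPM in 0.1% FBS, against 0.763 to 2.34 CPM in 10% FBS, with none at 0. The part of these markers in the results was not tested. In bulk RNA, fewer cells that express a gene and less of its RNA per cell cannot be told apart.

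On the scale per length (FPKM, fragments scaled to gene length and library size), the constitutive enzymes made up most of the module's RNA. Their group medians lay between 421 and 490 FPKM, from PFKL at 17.7 FPKM in 0.1% FBS to GAPDH at 7092 FPKM with the vector. The inducible glucose genes had group medians of 20.2 to 36.2 FPKM, with SLC16A3 lowest and ALDOC or SLC2A1 highest in each group. The HIF targets outside glycolysis had group medians of 13.9 to 25.1 FPKM, and BNIP3 was the most abundant of them in each group, at 43.3 FPKM in 10% FBS and 127 FPKM with caMKL1. CA12 and EGLN3 stayed under 1 FPKM in every group mean, and CA9 lay between 0.357 FPKM in 10% FBS and 32.0 FPKM with caMKL1.

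Serum starvation was accompanied by a higher level of most inducible genes and a somewhat lower level of most constitutive enzymes. Of the 24 inducible genes, 18 rose in 0.1% FBS and 3 fell (ANGPTL4, SLC16A3 and PFKFB3). Those that rose include CA9, with a 20.9-fold difference that rests on few counts in 10% FBS, and 8 others at 2-fold or more. Of the 14 constitutive enzymes, 10 fell and 2 rose (PGK1 and LDHA), none by 2-fold. All 38 genes passed the filter on low counts, and 33 passed the quasi-likelihood test of edgeR at a Benjamini-Hochberg adjusted p under 0.05, 20 higher and 13 lower. Across all 13307 genes tested, 62.6% passed, 31.2% higher and 31.4% lower, so the share of genes called is high everywhere, and the counts are to be read by direction and size. At 2-fold or more, 4.75% of all genes were higher and 2.75% lower, beside 9 and 1 of the 24 inducible genes. The median log2 fold change was 0.87 over the inducible genes and -0.21 over the constitutive enzymes, beside -0.00418 over all genes. Where 10 enzymes with textbook HIF regulation were counted as inducible, the median of the inducible genes was 0.36. In 33 of the 38 genes the CPM ranges of the groups did not overlap, beside 67.1% of all genes.

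Among the HIF targets outside glycolysis, 11 of 15 rose and 1 fell, with a median of 0.85. CA9 (chr9:35673856-35681159, plus strand, GRCh38), a carbonic anhydrase of the cell surface that acidifies the surroundings of the cell, was at 12.9, 11.1 and 10.8 CPM in 0.1% FBS, against 0.529, 0.661 and 0.448 CPM in 10% FBS (edgeR log2 fold change 4.39). Every starved library was far above every library in full serum, where the level rested on 9, 11 and 7 counts. CA9 passed the filter on low counts only through the starved libraries, so no test is given for it here. The counts of called genes include it. NDRG1, a stress-response protein, was at 141, 142 and 147 CPM in 0.1% FBS, against 59.3, 68.6 and 62.6 CPM in 10% FBS (edgeR log2 fold change 1.18, SE 0.0561, adjusted p = 3.66e-10). BNIP3, a receptor for mitophagy on the outer mitochondrial membrane, was at 141, 133 and 145 CPM in 0.1% FBS, against 65.7, 68.5 and 66.5 CPM in 10% FBS (edgeR log2 fold change 1.06, SE 0.0502, adjusted p = 3.27e-10). For both genes the groups lay far apart and the libraries within a group close together. ANGPTL4, a secreted inhibitor of lipoprotein lipase, went the other way, with 3.09, 1.98 and 2.63 CPM in 0.1% FBS, against 8.75, 9.86 and 7.37 CPM in 10% FBS (edgeR log2 fold change -1.75, SE 0.179, adjusted p = 9.18e-07). It was the only gene of the class called lower, and all 3 starved libraries were below all 3 in full serum.

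The other HIF targets that rose had log2 fold changes of 0.30 for P4HA2 to 1.05 for BNIP3L, the close relative of BNIP3. They comprise ANKRD37, KDM3A, a histone demethylase, P4HA1 and P4HA2, the catalytic subunits of collagen prolyl hydroxylase, EGLN1, the main HIF prolyl hydroxylase, MXI1, which competes with MYC for its partner MAX, and VEGFA, the growth factor of blood vessels. ADM, CA12 and EGLN3 did not pass the test. Their log2 fold changes were -0.21 (95% interval -0.47 to 0.05), -0.11 (-0.70 to 0.48) and 0.02 (-0.53 to 0.56), so rises of the size seen for BNIP3 lie outside these intervals.

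The inducible glucose genes were all called in starved cells, 7 higher and 2 lower, with a median of 0.97. ALDOC, an aldolase isoform best known from brain, was at 115, 117 and 114 CPM in 0.1% FBS, against 44.8, 49.9 and 41.3 CPM in 10% FBS (edgeR log2 fold change 1.35, SE 0.0623, adjusted p = 2.7e-10). PDK1, a kinase that keeps pyruvate out of the mitochondrial oxidation pathway, was at 73.4, 69.1 and 71.0 CPM in 0.1% FBS, against 31.8, 26.7 and 29.3 CPM in 10% FBS (edgeR log2 fold change 1.28, SE 0.0658, adjusted p = 8.23e-10). Both genes were well separated between the groups. HK2, the inducible hexokinase, was at 239.6, 226 and 237 CPM in 0.1% FBS, against 119, 108 and 116 CPM in 10% FBS (edgeR log2 fold change 1.04, SE 0.0490, adjusted p = 3.33e-10). ENO2, an enolase isoform best known from neurons, was at 85.8, 83.0 and 82.2 CPM in 0.1% FBS, against 40.6, 45.3 and 41.4 CPM in 10% FBS (edgeR log2 fold change 0.98, SE 0.0568, adjusted p = 2.77e-09). These genes, too, had no overlap between the groups. The glucose transporters SLC2A3 and SLC2A1 rose by 0.97 and 0.40 on the log2 scale. The enzyme pair that sets the activator of phosphofructokinase split, with PFKFB4 at 0.79 and PFKFB3 at -0.52. SLC16A3, the lactate exporter, had a log2 fold change of -0.66 (adjusted p = 0.00429), at 6.71, 7.96 and 5.91 CPM in 0.1% FBS, against 9.63, 14.1 and 8.77 CPM in 10% FBS.

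The constitutive enzymes moved less. PKM, pyruvate kinase of the last step of glycolysis, was at 2824, 2763 and 2746 CPM in 0.1% FBS, against 3801, 3965 and 3514 CPM in 10% FBS (edgeR log2 fold change -0.44, SE 0.0397, adjusted p = 2.95e-07). GAPDH was at 4819, 4571 and 4536 CPM in 0.1% FBS, against 5811, 6246 and 5239.9 CPM in 10% FBS (edgeR log2 fold change -0.31, SE 0.0494, adjusted p = 6.79e-05). TPI1, triose phosphate isomerase, was at 757, 731 and 758 CPM in 0.1% FBS, against 912, 946 and 874 CPM in 10% FBS (edgeR log2 fold change -0.28, SE 0.0388, adjusted p = 1.74e-05). In all 3 enzymes the starved libraries lay below those in full serum without overlap. PGK1, phosphoglycerate kinase, was the enzyme that rose most, with 708, 659 and 701 CPM in 0.1% FBS, against 555, 545 and 561 CPM in 10% FBS (edgeR log2 fold change 0.32, SE 0.0391, adjusted p = 6.43e-06). LDHA, which turns pyruvate into lactate, rose by 0.13, and LDHB, which favours the reverse reaction, had -0.26. ENO1, PFKM, HK1 and GPI fell as well, by 0.21 for GPI to 0.28 for ENO1 on the log2 scale. ALDOA and PFKL did not pass, with log2 fold changes of 0.04 (-0.06 to 0.13) and -0.10 (-0.24 to 0.04). The calls of PFKP and PGAM1 did not hold throughout. Without 0.1% FBS replicate 2 neither passed, PFKP was also lost without 0.1% FBS replicate 3, and both were lost when CPM were scaled by library totals, with adjusted p up to 0.0735 for PFKP and 0.127 for PGAM1.

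**Figure D1:**
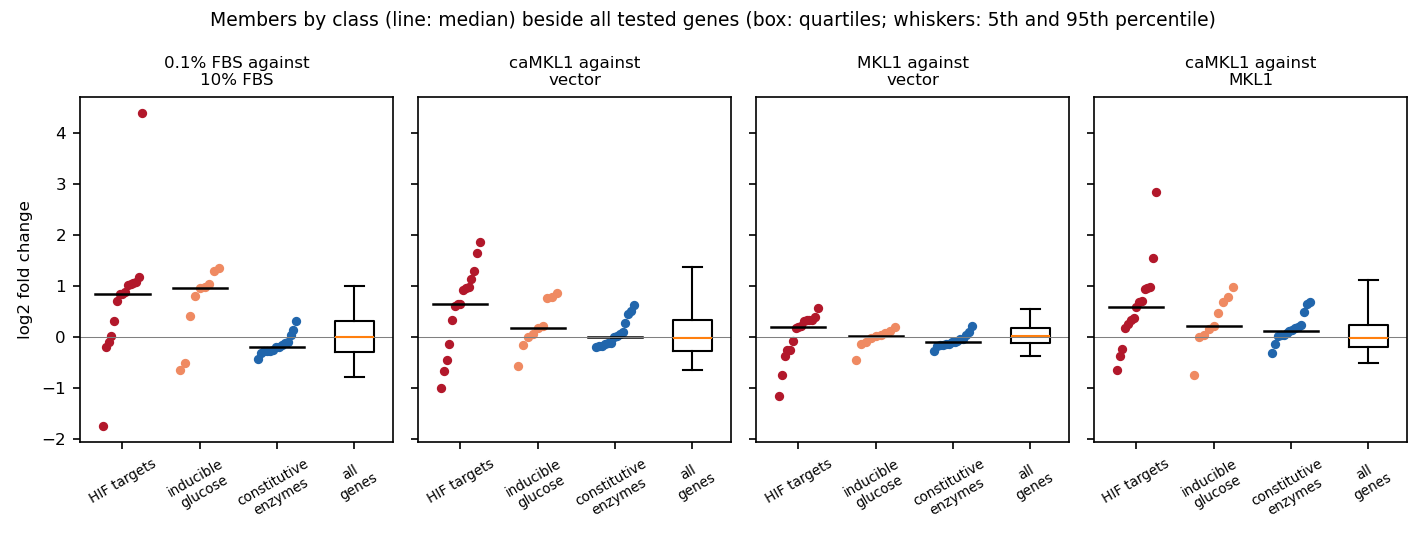
Log2 fold change (vertical axis) of each gene (points) by class, with the class median (line), beside all tested genes (box for the quartiles, whiskers for the 5th and 95th percentiles), in the 4 comparisons. In 0.1% FBS the medians of the HIF targets and the inducible glucose genes, 0.85 and 0.97, lie well above 0 and that of the constitutive enzymes, -0.21, below it, and with MKL1 the 3 class medians lie between -0.10 and 0.19.

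With caMKL1, most HIF targets outside glycolysis rose, while the glucose genes divided and the constitutive enzymes showed no common direction. Of the 24 inducible genes, 15 rose, led by P4HA2 at 3.62-fold and CA9 at 3.14-fold, and 5 fell (ANGPTL4, MXI1, VEGFA, SLC2A3 and PFKFB4). Of the 14 constitutive enzymes, 4 rose (PFKP, PGK1, ALDOA and PFKL) and 6 fell. In all, 30 of the 38 genes passed the edgeR test with Benjamini-Hochberg adjustment, 19 higher and 11 lower, beside 63.6% of 13558 genes, 30.5% higher and 33.1% lower. At 2-fold or more, 4 inducible genes were higher and 1 lower, beside 8.02% and 1.44% of all genes. The median log2 fold change was 0.65 over the HIF targets, 0.17 over the inducible glucose genes and -0.00194 over the constitutive enzymes, beside -0.0204 over all genes. Over the 24 inducible genes together it was 0.62, and 0.24 with 10 enzymes counted as inducible. The CPM ranges did not overlap in 31 of the 38 genes, beside 67.8% of all genes. Without caMKL1 replicate 3, without vector replicate 2 and with DESeq2's test, 3 inducible genes were lower in place of 5.

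P4HA2 (chr5:132191838-132295315, minus strand, GRCh38) was at 149.8, 158 and 155 CPM with caMKL1, against 43.2, 41.0 and 43.5 CPM with the vector (edgeR log2 fold change 1.86, SE 0.0477, adjusted p = 2.06e-13). CA9 was at 53.4, 51.2 and 46.9 CPM with caMKL1, against 17.2, 15.8 and 15.3 CPM with the vector (edgeR log2 fold change 1.65, SE 0.0711, adjusted p = 7.96e-11). In both genes every caMKL1 library was more than 2 times the highest vector library. BNIP3 was at 188, 206 and 193 CPM with caMKL1, against 77.2, 81.5 and 82.5 CPM with the vector (edgeR log2 fold change 1.29, SE 0.0482, adjusted p = 1.58e-11). KDM3A was at 119, 120.1 and 119.9 CPM with caMKL1, against 55.6, 53.2 and 56.0 CPM with the vector (edgeR log2 fold change 1.12, SE 0.0450, adjusted p = 3.33e-11). Neither gene had any overlap between the groups. BNIP3L, P4HA1, ADM, a vasodilating peptide hormone, ANKRD37, NDRG1, EGLN1 and EGLN3 rose by 0.33 for EGLN1 to 0.97 for BNIP3L on the log2 scale. EGLN3 was scarce, at 0.879, 0.803 and 0.865 CPM with caMKL1, against 0.406, 0.482 and 0.461 CPM with the vector, where it held 9, 10 and 11 counts. It passed the filter on low counts only through the caMKL1 libraries, so its call, which the counts of called genes include, carries no weight. The call was also lost without caMKL1 replicate 1, without caMKL1 replicate 3, without vector replicate 1 and with DESeq2 (adjusted p up to 0.110).

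The HIF targets that fell with caMKL1 were ANGPTL4 at -1.0, MXI1 at -0.46 and VEGFA at -0.15 on the log2 scale. VEGFA was at 81.1, 82.6 and 77.5 CPM with caMKL1, against 83.6, 92.8 and 91.4 CPM with the vector, so the groups lay next to each other without overlap. Its call was lost without caMKL1 replicate 3, without vector replicate 2 or 3, and with DESeq2 (adjusted p up to 0.100). CA12, another surface carbonic anhydrase, had a log2 fold change of -0.66 (-1.35 to 0.02), an interval too wide to exclude a sizeable fall.

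Of the inducible glucose genes, ENO2 was at 86.8, 85.2 and 88.4 CPM with caMKL1, against 49.5, 49.7 and 45.3 CPM with the vector (edgeR log2 fold change 0.85, SE 0.0519, adjusted p = 4.22e-09). ALDOC was at 95.7, 98.3 and 92.6 CPM with caMKL1, against 58.5, 54.8 and 54.2 CPM with the vector (edgeR log2 fold change 0.78, SE 0.0498, adjusted p = 7.42e-09). PDK1 was at 54.4, 63.4 and 55.2 CPM with caMKL1, against 31.0, 33.8 and 36.9 CPM with the vector (edgeR log2 fold change 0.77, SE 0.0751, adjusted p = 6.65e-07). In these 3 genes the caMKL1 libraries all lay above the vector libraries. PFKFB4 was at 63.3, 64.6 and 65.7 CPM with caMKL1, against 99, 93.1 and 97.3 CPM with the vector (edgeR log2 fold change -0.58, SE 0.0467, adjusted p = 8.58e-08), and the lower group was clear of the higher. PFKFB4 shares 289 exonic bases with the neighbouring gene UCN2 on the same strand, whose log2 fold change was -1.70 with caMKL1. UCN2 was at 0.67 in 0.1% FBS, 0.03 with MKL1 and -1.71 in caMKL1 against MKL1. PFKFB3 rose by 0.17 and SLC2A3 had -0.15, a call lost without caMKL1 replicate 3, without vector replicate 2, with the stricter filter and with DESeq2 (adjusted p up to 0.130). SLC2A1 and HK2 did not pass, with log2 fold changes of -0.01 (-0.10 to 0.07) and 0.05 (-0.04 to 0.13), and SLC16A3 was at 0.21 (0.02 to 0.40). These intervals leave room only for small changes of the transporter and the hexokinase.

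Among the constitutive enzymes, PFKP, the platelet form of phosphofructokinase, was at 273, 264 and 271 CPM with caMKL1, against 187, 171 and 168 CPM with the vector (edgeR log2 fold change 0.62, SE 0.0457, adjusted p = 3.23e-08). PGK1 was at 1099.9, 1116 and 1069 CPM with caMKL1, against 780.5, 766 and 773 CPM with the vector (edgeR log2 fold change 0.50, SE 0.0353, adjusted p = 1.94e-08). ALDOA, the aldolase of muscle and most tissues, was at 2072, 2055 and 2012 CPM with caMKL1, against 1572, 1476 and 1451 CPM with the vector (edgeR log2 fold change 0.45, SE 0.0385, adjusted p = 1.62e-07). The caMKL1 libraries were clear of the vector libraries in each of these enzymes. PFKL, the liver form, was at 77.7, 73.2 and 75.5 CPM with caMKL1, against 68.8, 61.4 and 57.1 CPM with the vector (edgeR log2 fold change 0.28, SE 0.0632, adjusted p = 0.00158). ENO1, LDHB, GAPDH, GPI, PFKM and PKM fell, all by less than 0.28 on the log2 scale. HK1, TPI1, PGAM1 and LDHA did not pass, with log2 fold changes of 0.01 (-0.07 to 0.09), 0.06 (-0.02 to 0.15), -0.01 (-0.09 to 0.06) and 0.09 (-0.00 to 0.17). The call of GPI was lost without caMKL1 replicate 2, without vector replicate 1 and with DESeq2 size factors (adjusted p up to 0.0987). PFKM was lost without those libraries, without caMKL1 replicate 3, with the stricter filter, with DESeq2 size factors and with DESeq2's test (up to 0.184).

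**Figure D2:**
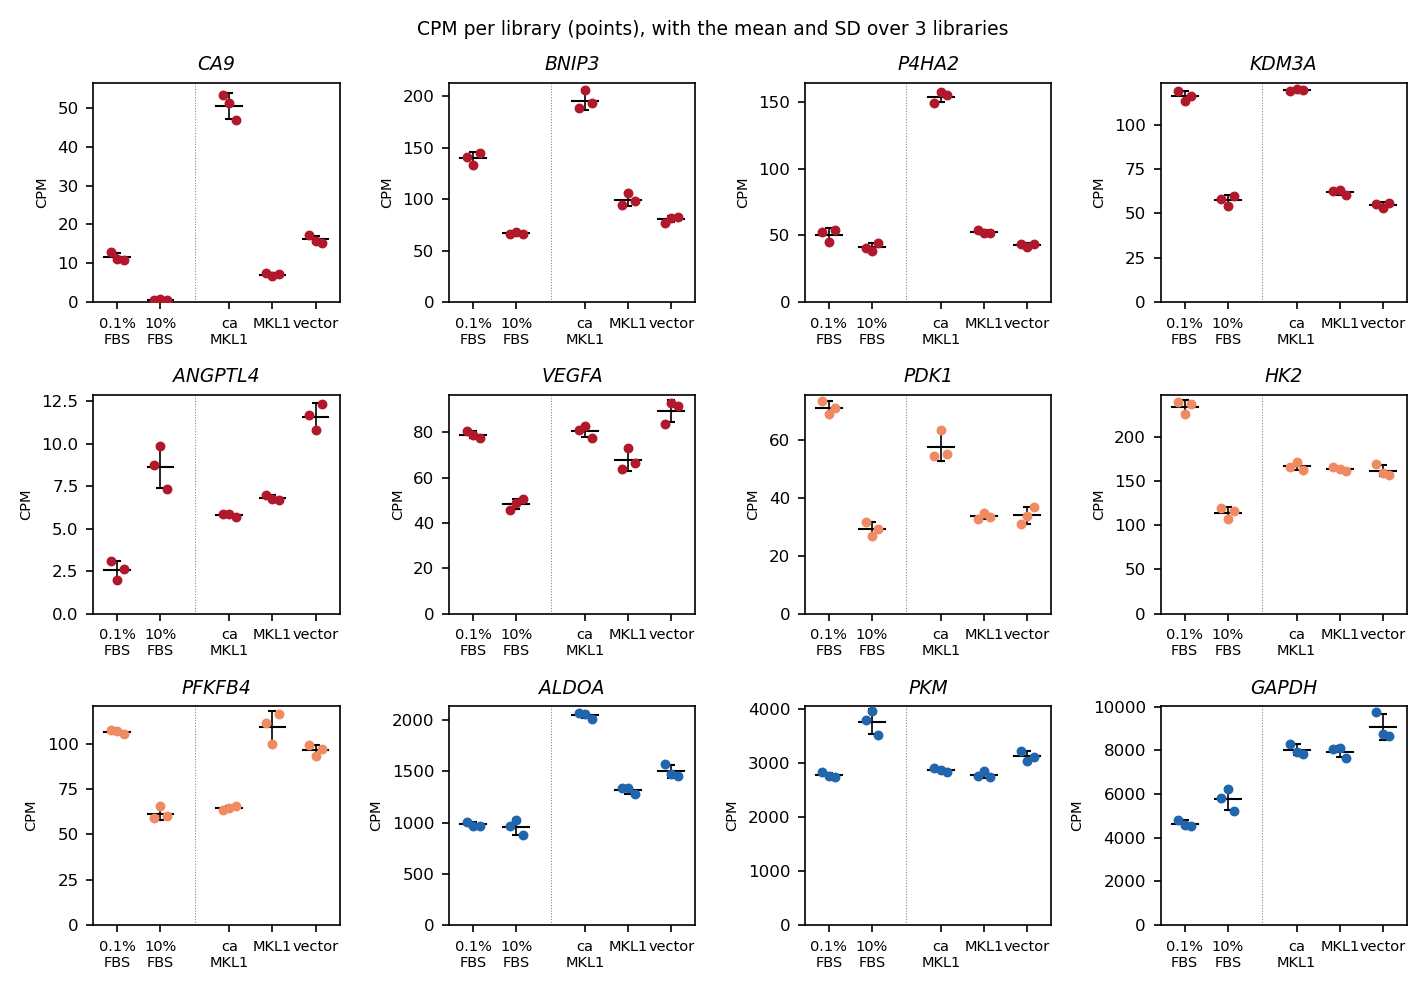
CPM of 12 genes in each library (points; bars for the mean and SD of 3 libraries), in HIF targets outside glycolysis (red), inducible glucose genes (orange) and constitutive enzymes (blue). The serum groups stand left of the dotted line and the overexpression groups right of it, on separate scalings; CA9 is at 46.9 to 53.4 CPM with caMKL1, 6.70 to 7.36 CPM with MKL1 and 15.3 to 17.2 CPM with the vector.

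Unmodified MKL1 was accompanied by smaller differences. Of the 24 inducible genes, 8 rose and 4 fell (CA9, ANGPTL4, VEGFA and SLC2A1), and of the 14 constitutive enzymes 1 rose (PFKM) and 6 fell. In all, 19 of the 38 genes passed the edgeR test with Benjamini-Hochberg adjustment, 9 higher and 10 lower, beside 31.2% of 13409 genes, 15.8% higher and 15.4% lower. None was higher by 2-fold or more and 1, CA9, was lower, beside 1.01% and 0.313% of all genes. The median log2 fold change was 0.19 over the HIF targets, 0.00581 over the inducible glucose genes and -0.10 over the constitutive enzymes, beside 0.0106 over all genes. The CPM ranges did not overlap in 25 of the 38 genes, beside 46.4% of all genes. Without MKL1 replicate 3 the count of called genes was 11, with 5 inducible genes higher and 2 constitutive enzymes lower, and over all genes 2595 were called in place of 4182. Without vector replicate 2 the count of inducible genes higher was 4, and without MKL1 replicate 1 it was 5.

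CA9 was at 7.36, 6.70 and 7.21 CPM with MKL1, against 17.2, 15.8 and 15.3 CPM with the vector (edgeR log2 fold change -1.16, SE 0.0899, adjusted p = 2.08e-06). ANGPTL4 was at 6.98, 6.74 and 6.72 CPM with MKL1, against 11.7, 10.8 and 12.4 CPM with the vector (edgeR log2 fold change -0.75, SE 0.0951, adjusted p = 0.00011). VEGFA was at 63.7, 72.9 and 66.2 CPM with MKL1, against 83.6, 92.8 and 91.4 CPM with the vector (edgeR log2 fold change -0.38, SE 0.0591, adjusted p = 0.000418). In all 3 genes the MKL1 libraries lay below the vector libraries. BNIP3L was at 45.9, 45.9 and 51.1 CPM with MKL1, against 33.5, 38.5 and 38.3 CPM with the vector (edgeR log2 fold change 0.39, SE 0.0688, adjusted p = 0.00097), and its MKL1 libraries were the higher ones. BNIP3, P4HA2, P4HA1, MXI1, KDM3A and EGLN1 were higher by 0.17 for EGLN1 to 0.33 for BNIP3. ANKRD37, EGLN3, CA12, ADM and NDRG1 did not pass, with log2 fold changes of 0.32 (-0.04 to 0.69), 0.56 (-0.20 to 1.32), -0.26 (-0.93 to 0.41), -0.26 (-0.49 to -0.03) and -0.07 (-0.18 to 0.03). The calls of EGLN1 and MXI1 were lost in 5 and 4 of the 6 fits that left out a library (both without MKL1 replicate 1, MKL1 replicate 3 and vector replicate 2), and KDM3A was lost without vector replicate 2, with adjusted p up to 0.114, 0.170 and 0.0704. MXI1 was also lost with DESeq2's test and when all 9 overexpression libraries were fitted together.

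SLC2A1, the main glucose transporter of most cells, was at 164, 182 and 156 CPM with MKL1, against 243, 228 and 224 CPM with the vector (edgeR log2 fold change -0.45, SE 0.0551, adjusted p = 7.75e-05). PFKFB4 was at 111, 99.6 and 116 CPM with MKL1, against 99, 93.1 and 97.3 CPM with the vector (edgeR log2 fold change 0.20, SE 0.0579, adjusted p = 0.0193). The SLC2A1 groups were clear of each other, whereas those of PFKFB4 nearly touched. No other inducible glucose gene passed: PDK1 was at 0.01 (-0.13 to 0.14), HK2 at 0.04 (-0.05 to 0.12) and ENO2 at -0.11 (-0.22 to 0.01) on the log2 scale, and ALDOC, SLC16A3, PFKFB3 and SLC2A3 lay between -0.14 for SLC2A3 and 0.11 for ALDOC. ENO1 was at 2662, 2748 and 2582 CPM with MKL1, against 3445, 3169.6 and 3158 CPM with the vector (edgeR log2 fold change -0.27, SE 0.0427, adjusted p = 0.000469). ALDOA was at 1333, 1337 and 1275 CPM with MKL1, against 1572, 1476 and 1451 CPM with the vector (edgeR log2 fold change -0.17, SE 0.0415, adjusted p = 0.00731). Both enzymes were lower with MKL1 in all libraries. PFKM, the muscle form of phosphofructokinase, was at 119, 105 and 114 CPM with MKL1, against 103, 96.7 and 98.2 CPM with the vector (edgeR log2 fold change 0.20, SE 0.0533, adjusted p = 0.0110). GAPDH was at 8061, 8108 and 7659 CPM with MKL1, against 9772, 8747 and 8683 CPM with the vector (edgeR log2 fold change -0.17, SE 0.0463, adjusted p = 0.0125). These groups, too, did not overlap, though the vector libraries of GAPDH ranged widely. PFKL, PGK1, LDHB, PFKP, TPI1, HK1 and PGAM1 did not pass, with log2 fold changes between -0.10 for PGAM1 and 0.09 for PFKL. GAPDH, GPI, PKM and LDHA lost their calls without MKL1 replicate 3, and LDHA also without MKL1 replicate 1 (adjusted p up to 0.0685, 0.0874, 0.0567 and 0.0885). PFKFB4 and PFKM lost theirs without MKL1 replicate 1, without MKL1 replicate 3 and without vector replicate 2 (up to 0.120 and 0.0717).

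The direct comparison of caMKL1 with MKL1, fitted on all 9 overexpression libraries, tests the difference between the 2 forms. Of the 24 inducible genes, 15 were higher with caMKL1 and 2 lower (MXI1 and PFKFB4), and of the 14 constitutive enzymes 8 were higher and 2 lower (PFKM and LDHB). In all, 27 genes passed the edgeR test with Benjamini-Hochberg adjustment, 23 higher and 4 lower, beside 52.2% of 13720 genes, 25.2% higher and 27.0% lower. At 2-fold or more, CA9 and P4HA2 were higher, beside 5.78% of all genes, and no gene of the module was lower, beside 1.02%. The median log2 fold change was 0.59 over the HIF targets, 0.22 over the inducible glucose genes and 0.12 over the constitutive enzymes, beside -0.0166 over all genes. The CPM ranges did not overlap in 32 of the 38 genes, beside 61.4% of all genes. Scaling by library totals shifted the median of all genes by -0.0702 and the split of calls over all genes to 2750 higher and 4942 lower, against 3463 and 3701 with the scaling used here, and left 5 constitutive enzymes higher. Without MKL1 replicate 3 that count was likewise 5.

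CA9, at the levels given above, was 7.12-fold higher with caMKL1 than with MKL1 (edgeR log2 fold change 2.83, SE 0.0777, adjusted p = 3.3e-15). P4HA2 was at 149.8, 158 and 155 CPM with caMKL1, against 54.1, 52.1 and 52.2 CPM with MKL1 (edgeR log2 fold change 1.55, SE 0.0443, adjusted p = 6.09e-15). BNIP3 was at 188, 206 and 193 CPM with caMKL1, against 94.7, 106 and 97.9 CPM with MKL1 (edgeR log2 fold change 0.98, SE 0.0499, adjusted p = 2.41e-11). All these differences were many times their SE. KDM3A was at 119, 120.1 and 119.9 CPM with caMKL1, against 62.9, 63.1 and 60.4 CPM with MKL1 (edgeR log2 fold change 0.95, SE 0.0426, adjusted p = 4.01e-12). ADM, NDRG1, P4HA1 and BNIP3L were higher by 0.93, 0.69, 0.68 and 0.59 on the log2 scale (SE 0.106, 0.0469, 0.0513 and 0.0643). Of the glucose genes, ENO2, PDK1 and ALDOC were higher by 0.98, 0.78 and 0.68 on the log2 scale (SE 0.0518, 0.0701 and 0.05), and PFKFB4 was lower, at -0.76 (SE 0.0545). PFKP, ALDOA and PGK1 were higher by 0.69, 0.64 and 0.49 (SE 0.0448, 0.0380 and 0.0342), and PFKM was at -0.31 (SE 0.0524). LDHA and TPI1 were higher by 0.24 and 0.17. VEGFA and SLC2A1 were higher with caMKL1 than with MKL1, by 0.25 and 0.46, though neither was higher than with the vector. SLC2A3, HK2 and SLC16A3 did not pass, with intervals of -0.11 to 0.12, -0.05 to 0.11 and -0.02 to 0.34. ANKRD37, EGLN3 and CA12 did not pass either, with intervals of 0.01 to 0.67, -0.29 to 1.03 and -1.10 to 0.33, nor did ENO1, PKM, GPI and GAPDH, at 0.02 for GAPDH to 0.08 for ENO1. The calls of EGLN1, HK1, PFKL and PGAM1 were lost without MKL1 replicate 3 and with library totals, HK1 and PFKL also without MKL1 replicate 2, EGLN1 and PGAM1 without caMKL1 replicate 2, PGAM1 without MKL1 replicate 1, and LDHB without caMKL1 replicate 1, with adjusted p up to 0.353 for PGAM1.

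**Figure D3:**
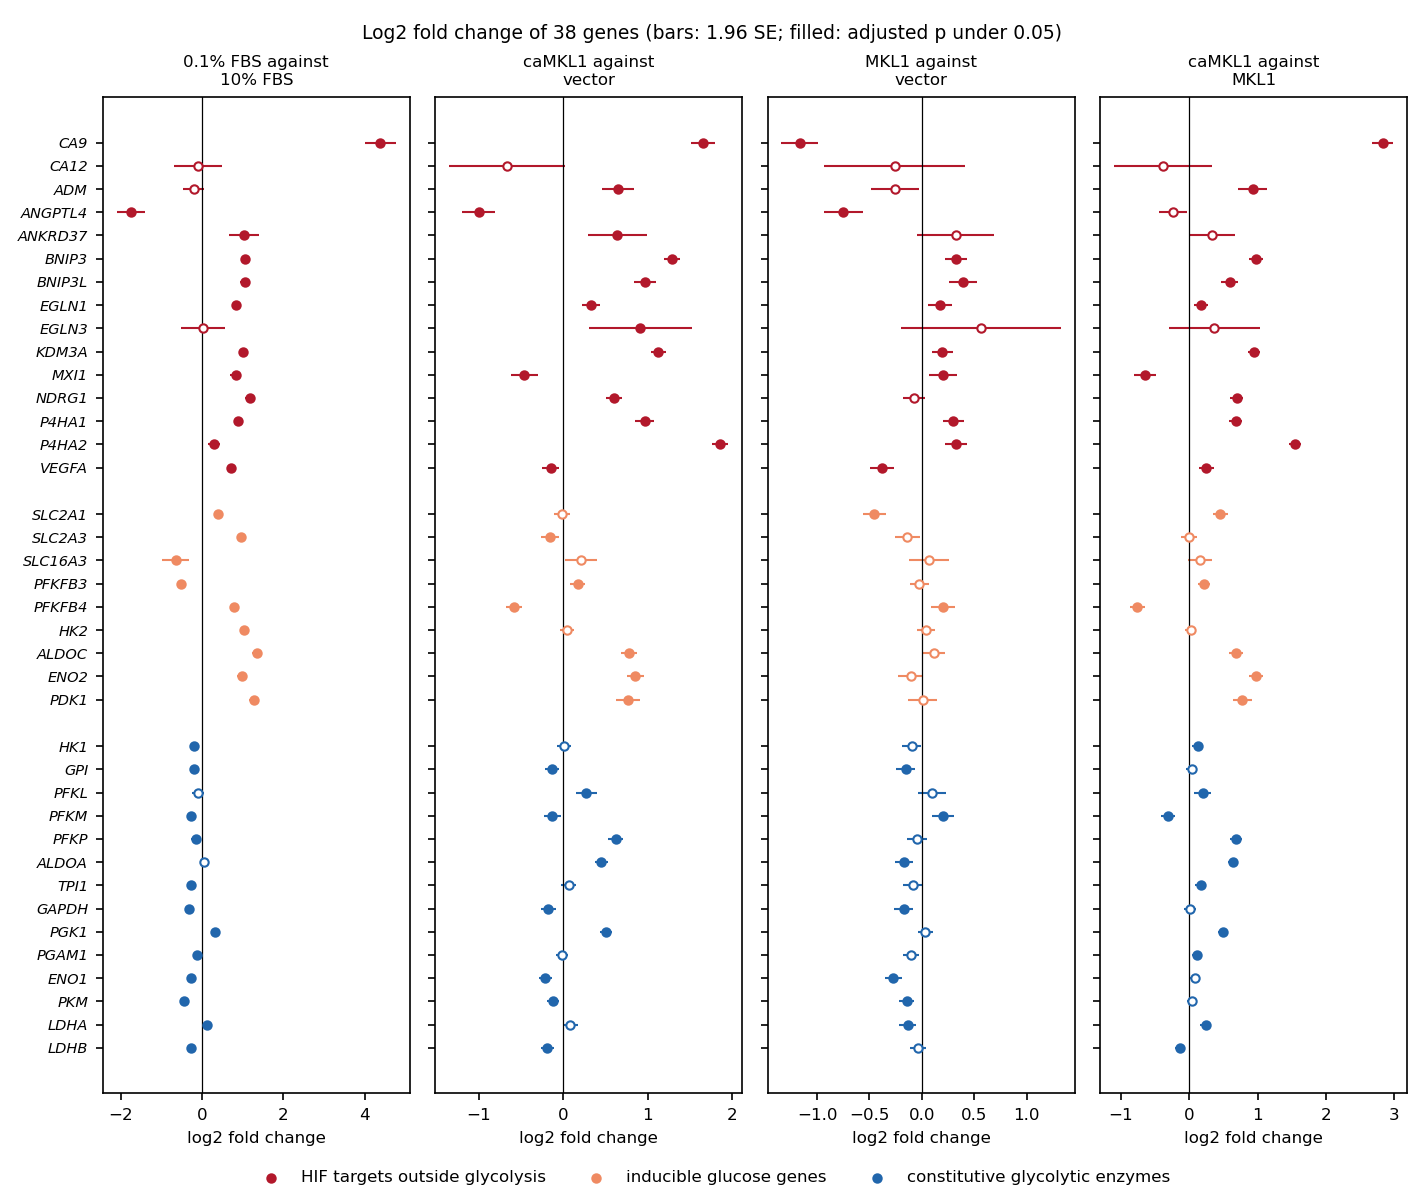
Log2 fold change of each of the 38 genes (horizontal axis; bars for an approximate 95% interval) in the 4 comparisons, with filled points for an adjusted p under 0.05; the horizontal axes differ in range. In 0.1% FBS the filled red and orange points lie right of 0 except ANGPTL4, SLC16A3 and PFKFB3, and the blue points of the constitutive enzymes stay within 0.44 of 0.

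The starvation and caMKL1 comparisons share no library, so their calls can be set beside each other. Of the 20 genes higher in 0.1% FBS and the 19 higher with caMKL1, 13 were higher in both, which is 65% and 68.4% of these lists. Over the 13014 genes tested in both, these shares were 40.2% and 42.1%. The 13 genes were CA9, ANKRD37, BNIP3, BNIP3L, EGLN1, KDM3A, NDRG1, P4HA1, P4HA2, ALDOC, ENO2, PDK1 and PGK1. Lower in both were 7 genes, ANGPTL4 with the enzymes GPI, PFKM, GAPDH, ENO1, PKM and LDHB, which is 53.8% and 63.6% of the lists of lower genes, beside 50.4% and 47.1% over all genes. MXI1, VEGFA, SLC2A3 and PFKFB4 were higher in 0.1% FBS and lower with caMKL1, and PFKFB3 and PFKP were lower in 0.1% FBS and higher with caMKL1. HK2, SLC2A1 and LDHA were called in 0.1% FBS and not with caMKL1, and ADM, EGLN3, PFKL and ALDOA with caMKL1 and not in 0.1% FBS, but differences of effect between these sets were not tested. Across the 38 genes the log2 fold changes correlated with Pearson's r = 0.58, and across the 24 inducible genes with r = 0.52, beside 0.15 over all genes. These are descriptions across genes, which are not independent replicates, and CA9 is the farthest point. The MKL1 and caMKL1 comparisons share the vector libraries, so no overlap is given for them.

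**Figure D4:**
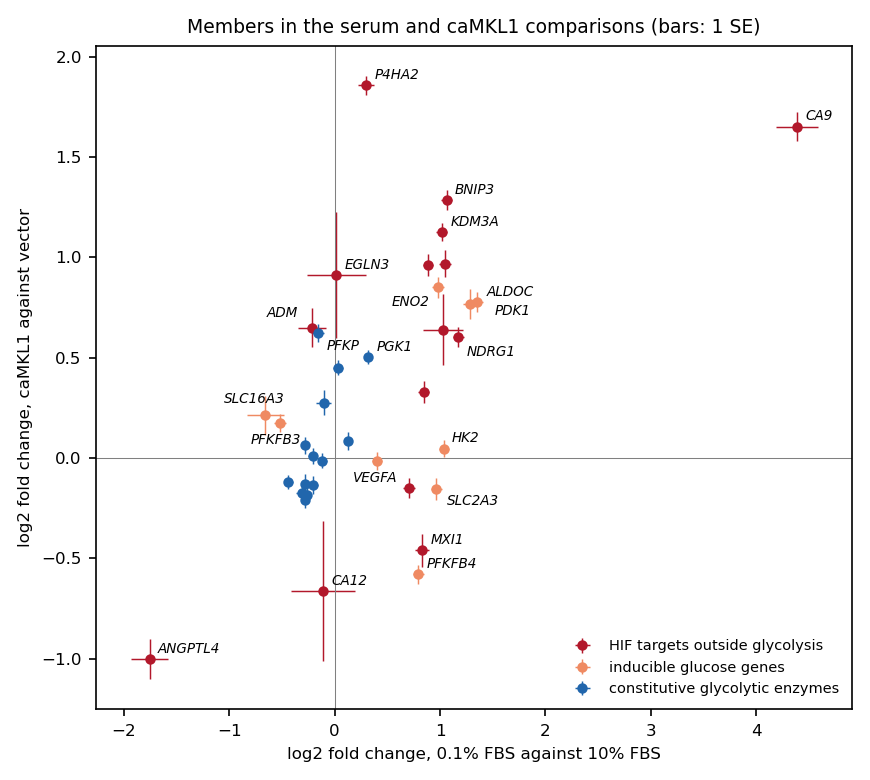
Log2 fold change of the 38 genes with caMKL1 against vector (vertical axis) and in 0.1% against 10% FBS (horizontal axis), with bars for 1 SE. The 13 genes called higher in both lie in the upper right, with CA9 at 4.39 and 1.65, and MXI1, VEGFA, SLC2A3 and PFKFB4, called in opposite directions, lie in the lower right.

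Where the module holds 2 genes for the same step, the share of each in their summed FPKM was followed per library, with no test. HK2 made up 39.3%, 38.9% and 41.0% of the hexokinase RNA of HK2 and HK1 in 0.1% FBS, against 22.4%, 20.3% and 22.8% in 10% FBS. It made up 29.9% ± 0.741 with caMKL1, 31.3% ± 0.705 with MKL1 and 29.3% ± 0.100 with the vector (SD, n = 3 each). The share was thus clearly higher in starved cells, and the caMKL1 and vector ranges overlapped. ALDOC made up 9.69%, 10.1% and 10.2% of ALDOC and ALDOA in 0.1% FBS, against 4.05%, 4.38% and 4.16% in 10% FBS. It was at 4.11% ± 0.0685 with caMKL1, 4.02% ± 0.120 with MKL1 and 3.34% ± 0.0273 with the vector. ALDOA thus remained the main aldolase in every group. ENO2 made up 2.91%, 2.95% and 2.93% of ENO2 and ENO1 in 0.1% FBS, against 1.22%, 1.3% and 1.31% in 10% FBS. It was at 2.47%, 2.62% and 2.89% with caMKL1, against 1.33%, 1.3% and 1.29% with the vector. ENO2 was a small part of the enolase RNA throughout.

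LDHA made up 53.5%, 54.7% and 56.1% of LDHA and LDHB in 0.1% FBS, against 46.9%, 45.4% and 49.2% in 10% FBS. It was at 60.8% ± 0.837 with caMKL1, 54.3% ± 0.672 with MKL1 and 55.9% ± 0.801 with the vector. The caMKL1 libraries were above all vector libraries, and the MKL1 libraries were below them. PFKFB4 made up 69.1%, 69.0% and 69.2% of PFKFB4 and PFKFB3 in 0.1% FBS, against 44.0%, 52.7% and 49.0% in 10% FBS. It was at 31.7% ± 2.05 with caMKL1, 48.7% ± 1.76 with MKL1 and 45.0% ± 1.23 with the vector, so this pair shifted in opposite directions in starved and caMKL1 cells. UCN2, which shares exonic bases with PFKFB4, moved in the direction of PFKFB4 in both, and its part in the share was not tested. SLC2A3 made up 32.3% ± 2.08 of SLC2A3 and SLC2A1 in 0.1% FBS, against 24.2% ± 0.662 in 10% FBS, and 11.9% ± 0.292 with caMKL1, 15.8% ± 2.04 with MKL1 and 12.8% ± 0.775 with the vector.

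**Figure D5:**
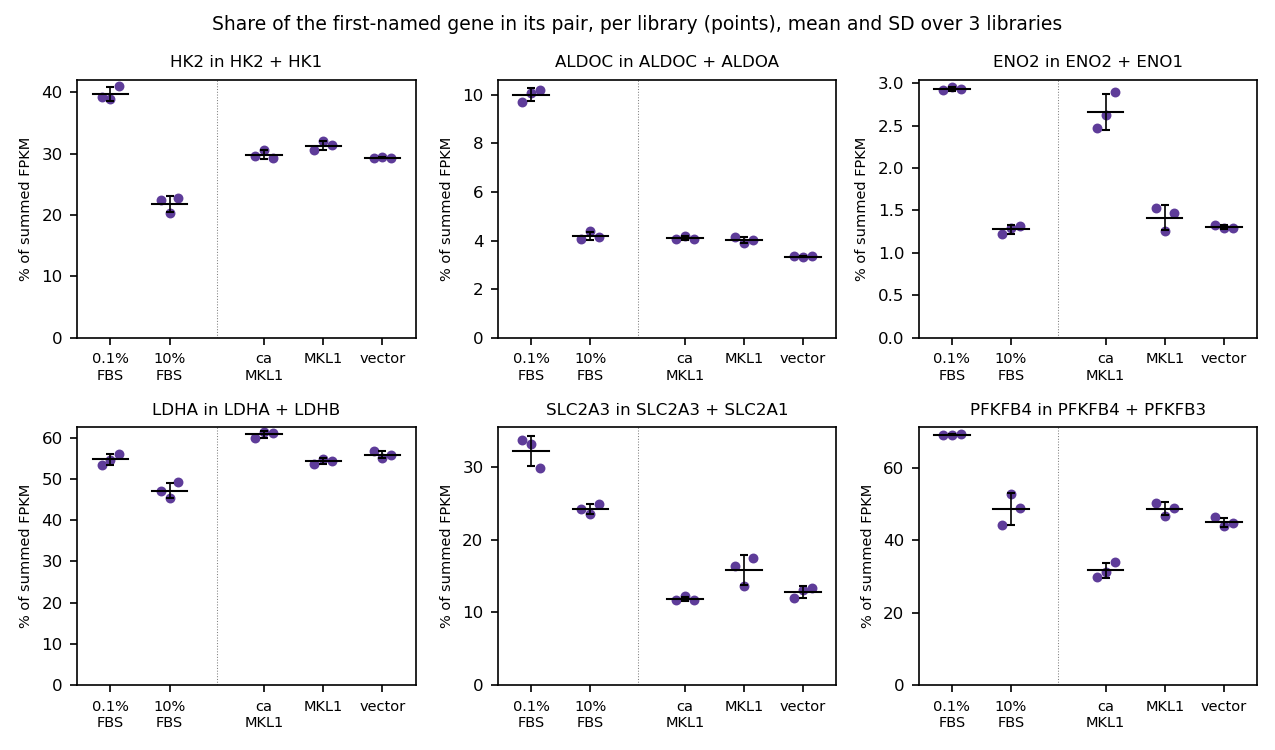
Share of the first-named gene in the summed FPKM of its pair (vertical axis, percent) per library (points), with the mean and SD of 3 libraries, by group (horizontal axis). HK2, ALDOC, ENO2, LDHA, SLC2A3 and PFKFB4 each have a higher share in all 0.1% FBS libraries than in all 10% FBS libraries, and PFKFB4 has its lowest share with caMKL1.

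Set beside the promoter letters shown above, the 13 inducible genes with ACGTG had a median log2 fold change of 0.98 in 0.1% FBS, with 10 higher and 3 lower, and the 7 with a promoter but without ACGTG had a median of 0.30, with 4 higher and none lower. Over all genes, 31.2% were higher and 31.4% lower in 0.1% FBS. With caMKL1 the medians were 0.64, with 9 higher and 2 lower, and 0.65, with 4 higher and 1 lower, beside 30.5% and 33.1% of all genes. The split leaves out BNIP3L, NDRG1, SLC2A3 and VEGFA, which had no promoter to search. All were higher in 0.1% FBS, and with caMKL1 BNIP3L and NDRG1 were higher and SLC2A3 and VEGFA lower. ANGPTL4, PFKFB3 and SLC16A3, the inducible genes that fell in 0.1% FBS, all hold ACGTG in the searched window, and so do GAPDH, GPI, TPI1, PFKM and PFKP. KDM3A, which rose in both comparisons, and P4HA2 hold no ACGTG there. Of the 7 genes without ACGTG, however, KDM3A, ADM, CA12 and PFKFB4 hold GCGTG, the other form of the core. The split by ACGTG therefore does not divide genes with the core from genes without it. These counts describe letters within 250 bases of a start and leave out enhancers.

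Of 17 regulators of the HIF pathway, 16 passed the filter, and the share of them called was near that of all genes in 0.1% FBS, with caMKL1 and with MKL1. In 0.1% FBS, 6 were higher and 4 lower of 16, beside 62.6% of all genes called, with a median log2 fold change of 0.07. CITED2, which competes with HIF for its coactivators, was at 43.5, 42.8 and 41.0 CPM in 0.1% FBS, against 15.8, 14.1 and 13.8 CPM in 10% FBS (edgeR log2 fold change 1.54, SE 0.0733, adjusted p = 3.47e-10). ARNT2, a partner subunit, was at 101, 99.8 and 99.96 CPM in 0.1% FBS, against 46.0, 48.4 and 48.7 CPM in 10% FBS (edgeR log2 fold change 1.07, SE 0.0502, adjusted p = 3.1e-10). Both groups were clearly separated in these genes. EP300, a coactivator, had a log2 fold change of 0.42, and RBX1, a subunit of the VHL ligase, one of -0.49. HIF1A itself did not pass, at 402, 396 and 409 CPM in 0.1% FBS, against 399, 351 and 401 CPM in 10% FBS, with overlapping groups.

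With caMKL1, 4 regulators were higher and 7 lower of 16, beside 63.6% of all genes called. EPAS1, the other alpha subunit, was at 9.37, 7.69 and 7.47 CPM with caMKL1, against 3.47, 4.05 and 4.44 CPM with the vector (edgeR log2 fold change 1.04, SE 0.137, adjusted p = 1.26e-05). CITED2 was at 10.7, 13.1 and 12.5 CPM with caMKL1, against 20.6, 20.5 and 19.9 CPM with the vector (edgeR log2 fold change -0.75, SE 0.0843, adjusted p = 2.56e-06), the opposite of its direction in 0.1% FBS. VHL was at -0.38 and ARNT2 at 0.46 on the log2 scale. HIF1A was at 404, 418 and 405 CPM with caMKL1, against 347, 359 and 373 CPM with the vector (edgeR log2 fold change 0.19, SE 0.0398, adjusted p = 0.000883), a small difference with no overlap. With MKL1, 3 regulators were higher and 2 lower of 16, beside 31.2% of all genes called, the smallest p belonging to ARNT2 at 0.46, CREBBP at -0.29, RBX1 at -0.22 and HIF1AN at 0.13. Between caMKL1 and MKL1, 2 were higher, HIF1A and EPAS1, and 3 lower, CITED2, VHL and ELOB, beside 52.2% of all genes called.

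A further list of 31 HIF targets outside the module gave 15 higher and 5 lower of 29 tested in 0.1% FBS, beside 31.2% and 31.4% of all genes, with a median log2 fold change of 0.43, and 16 higher and 6 lower of 29 with caMKL1, beside 30.5% and 33.1% of all genes, with a median of 0.27. With MKL1 it gave 6 higher and 5 lower of 28, beside 15.8% and 15.4% of all genes, and in caMKL1 against MKL1 18 higher and 2 lower of 29, beside 25.2% and 27.0%. The total called, 20 of 29 in 0.1% FBS and 11 of 28 with MKL1, was near that of all genes, and the direction of the calls is what the counts describe. This list, too, was chosen with earlier results of these data known. STC1, a secreted hormone of calcium balance, was at 79.6, 81.1 and 82.3 CPM in 0.1% FBS, against 12.2, 14.0 and 14.0 CPM in 10% FBS (edgeR log2 fold change 2.59, SE 0.0668, adjusted p = 4.02e-13). TFRC, the transferrin receptor, and BHLHE40, a transcriptional repressor, rose by 1.38 and 1.05, and LOXL2, a secreted lysyl oxidase, fell by 1.73 on the log2 scale. With caMKL1 the smallest p belonged to PLOD1, a collagen lysyl hydroxylase, at 742, 704 and 698 CPM with caMKL1, against 344, 323 and 321 CPM with the vector (edgeR log2 fold change 1.12, SE 0.0420, adjusted p = 1.58e-11). GBE1, of glycogen synthesis, AK4, a mitochondrial adenylate kinase, and VLDLR, a lipoprotein receptor, rose by 1.00, 0.69 and 0.94. PLOD1 had the opposite sign in 0.1% FBS, at -0.45. DDIT4, an inhibitor of growth signalling, was lower with caMKL1 than with MKL1, at -0.79.

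Of 22 pyruvate and branch pathway genes, 9 were higher and 10 lower in 0.1% FBS, 9 and 10 with caMKL1, 3 and 2 with MKL1, and 7 and 7 between caMKL1 and MKL1. Over all genes the calls likewise split almost evenly, with 62.6%, 63.6%, 31.2% and 52.2% called in these comparisons. In 0.1% FBS the pyruvate dehydrogenase kinases PDK4 and PDK3 moved in the direction of PDK1. PDK4 was at 53.7, 53.4 and 59.9 CPM in 0.1% FBS, against 22.3, 20.3 and 22.2 CPM in 10% FBS (edgeR log2 fold change 1.36, SE 0.0697, adjusted p = 7.82e-10). PDK3 was at 81.4, 78.7 and 86.0 CPM in 0.1% FBS, against 39.5, 38.3 and 40.0 CPM in 10% FBS (edgeR log2 fold change 1.06, SE 0.0556, adjusted p = 1e-09). Both kinases had no overlap between the groups, and so did PFKFB2 (1.21) and PGD, of the pentose phosphate pathway (0.51). With caMKL1, PDK3 rose by 0.58 and TIGAR, a fructose bisphosphatase, by 0.52, TKT, the transketolase, was at -0.53, and PDHB, a subunit of pyruvate dehydrogenase, rose by 0.37. PDK4 was higher with MKL1 than with the vector, at 0.50, and lower with caMKL1 than with MKL1, at -0.68.

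Several values are uncertain because genes share sequence. CA9 shares 643 exonic bases (38.5% of its exons) with ARHGEF39 on the opposite strand, and whether the counting used the strand is not given in the sources used here. ARHGEF39 had log2 fold changes of -1.08 in 0.1% FBS, 0.31 with caMKL1, 0.27 with MKL1 and 0.06 in caMKL1 against MKL1. Its part in the CA9 values was not tested. ANKRD37 shares 909 bases (35.23%) with UFSP2 on the opposite strand, and ALDOA shares 42.31% of its exons with AC093512.2 on the same strand. AC093512.2 had log2 fold changes of 0.49 in 0.1% FBS, 0.24 with caMKL1, -0.12 with MKL1 and 0.38 in caMKL1 against MKL1. How reads were divided between ALDOA and AC093512.2 is not known, and the ALDOA level and the ALDOC share depend on it. PFKFB4 shares 4.73% of its exons with UCN2, whose values are given above. GAPDH has 62 annotated pseudogenes, BNIP3 39 and PGAM1 13, and how the counting treated reads that fit several of them is not known.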

How the data were processed

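RNA-seq of polyadenylated RNA gave 15 libraries in 5 groups of 3, in 3 deposited tables (0.1% with 10% FBS, MKL1 with vector, caMKL1 with vector), and the vector columns were identical in both overexpression tables for all 20323 genes. Per the file headers the authors deposited a read count and an FPKM value per gene and library. The counts are whole numbers. The tools named per the submitters' processing notes, in no stated role, are RSEM, StringTie 1.3.1, HISAT2 2.2.4, DESeq2 and Bowtie2 2.2.8, with the build GRCh38, so the counts may be rounded RSEM estimates. Annotation release, strand setting and the treatment of reads that fit several places were not given in these sources, and such reads could move between overlapping or near-identical genes. FPKM depends on the total RNA of a library and was used only for levels between genes and isoform shares. The authors' own fold changes and p-values were not used.

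For each comparison TMM scaling, filterByExpr and the two-sided quasi-likelihood test of edgeR 4.0.16 (R 4.3.3) were applied to the counts, and p-values were adjusted by Benjamini-Hochberg over all genes tested, with calls at 0.05. Each pair of groups in a table was fitted on its own 6 libraries, and caMKL1 against MKL1 used the 9 overexpression libraries. The SE of a log2 fold change was taken as its size over the root of the F statistic. CPM are TMM-scaled counts over the 6 serum or the 9 overexpression libraries, so levels are comparable within a set and not across sets. Library totals of 13937251 to 23957043 make 3 counts equal to 0.124 to 0.214 CPM, which covers counting error only. The script was checked on simulated counts with 200 changed genes, where it missed part of the changes of 1.5-fold and the share of false calls was somewhat above the 0.05 aimed at, so calls of small fold are less certain. The 38 genes were named in every comparison, with all libraries given for the 4 called genes of largest log2 fold change in each class, and up to 4 genes of smallest p from each further list. The genes, classes and further lists were chosen with earlier results of these data known. EGLN1 and LDHB, whose symbols occur on a second line of the overexpression tables, were matched by gene ID. Coordinates and overlaps come from a GENCODE annotation of GRCh38, and promoters from RefSeq on GRCh38.p14. Alternatives were DESeq2 size factors, library totals, no filter beyond 1 count, a filter of at least 50 counts in 3 libraries, DESeq2 1.42.0, a replicate block, other sets of libraries, each library left out in turn, and another division of the classes.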

Additional observations from a re-analysis of the deposited data

How the results depend on the processing

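Of the genes called, 31 of 33 in 0.1% FBS, 25 of 30 with caMKL1, 10 of 19 with MKL1 and 22 of 27 in caMKL1 against MKL1 kept their call under every alternative run, and no called direction was reversed. Counting 10 enzymes with textbook HIF regulation (ALDOA, PGK1, ENO1, LDHA, GAPDH, TPI1, PGAM1, GPI, PKM and PFKL) as inducible changed the contrast of the classes most, by construction. In 0.1% FBS it put 9 inducible genes lower in place of 3, and left 0 constitutive enzymes higher in place of 2 and 4 lower in place of 10. With caMKL1 it put 9 inducible genes lower in place of 5, and left 1 constitutive enzyme higher and 2 lower. The median log2 fold change of the inducible genes became 0.36 in place of 0.87 in 0.1% FBS, 0.24 in place of 0.62 with caMKL1, -0.05 in place of 0.05 with MKL1 and 0.25 in place of 0.41 in caMKL1 against MKL1. With MKL1 the division put 10 inducible genes lower in place of 4 and left 0 constitutive enzymes lower, and in caMKL1 against MKL1 it left 2 constitutive enzymes higher in place of 8. DESeq2's test gave 3 inducible genes lower with caMKL1, and library totals gave 5 constitutive enzymes higher in caMKL1 against MKL1, and the cause was not tested. With each library left out in turn, MKL1 gave 11 to 20 genes called, 4 to 8 inducible genes higher, 0 to 2 constitutive enzymes higher and 2 to 7 lower. In the same way caMKL1 gave 3 to 6 inducible genes lower, and caMKL1 against MKL1 gave 5 to 8 constitutive enzymes higher and 1 to 2 lower, with fewer libraries in each of these fits. The replicate numbers were not taken as a pairing: libraries of the same number had correlations of -0.0624 to 0.108 in their deviations from the group means, and not every library correlated best with its own number. With the replicate block, 33, 30, 19 and 27 of the 38 genes were called in the 4 comparisons, the same counts as without it. Depth limits CA12, EGLN3 and ANKRD37, at a few CPM or less, whose intervals are wide, and CA9 in 10% FBS, with 7 to 11 counts per library.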

Other observations

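Isoforms of glycolysis genes known from single tissues were mostly at or near 0 in A375 cells, but SLC2A4, the insulin-responsive glucose transporter of muscle and fat, was at 5.66, 6.14 and 6.18 CPM with caMKL1, against 0.381, 0.193 and 0.206 CPM with MKL1 and 0.0901, 0.193 and 0.126 CPM with the vector. The caMKL1 libraries were far above all others. The gene passed the filter on low counts only through the caMKL1 libraries, and the vector libraries held 2, 4 and 3 counts, so no test is given for it. In the serum set it stayed at 0.178, 0.359 and 0.142 CPM in 0.1% FBS and 0.294, 0.361 and 0.0640 CPM in 10% FBS. Of the 15 genes of this list, 3 passed the filter in the serum set, HKDC1, ENO3 and LDHC. All 3 fell in 0.1% FBS, at -0.75, -0.43 and -0.54 on the log2 scale, beside 31.4% of all genes lower. HKDC1, a further hexokinase, was at 7.48, 8.26 and 7.90 CPM in 0.1% FBS, against 12.2, 13.9 and 13.9 CPM in 10% FBS, was higher with MKL1 than with the vector (0.40) and lower with caMKL1 than with MKL1 (-0.51).

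The vector libraries and the 10% FBS libraries, both controls, were scaled separately, so their levels are set side by side without a comparison. CA9 averaged 16.1 ± 0.984 CPM with the vector and 0.546 ± 0.107 CPM in 10% FBS (SD, n = 3 each). EGLN3 averaged 0.449 ± 0.0393 CPM with the vector and 1.49 ± 0.457 CPM in 10% FBS. VEGFA averaged 89.3 ± 4.96 CPM with the vector and 48.4 ± 2.35 CPM in 10% FBS, and SLC2A1 232 ± 9.57 and 132 ± 6.54 CPM in the same groups. The serum level, passage and day of the overexpression cells are not given in the labels.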
